A study of Mus musculus with 6 samples.

Results

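The genes described here were 9 regulators, cytokines and receptors of T helper and innate lymphoid cells, out of 19349 gene symbols counted in every table. They were chosen by name, with earlier results of these data known. The regulators were Tbx21, Eomes, Gata3, Foxp3 and Zbtb16, the cytokines were Il4, Il13 and Il17a, and Il2ra encodes a cytokine receptor chain. They were followed in T, NKT-like, γδ T, NK and ILC cells of the liver and compared between vehicle and ginkgetin.

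Liver tissue was taken from male C57BL/6J mice with nonalcoholic steatohepatitis (NASH) after 24 weeks on a high-fat diet. The mice were 8 weeks old when purchased, and no genetic change was named. In the last 8 weeks the control group received vehicle (DMSO) and the ginkgetin group received ginkgetin, a biflavone of Ginkgo biloba leaves, at 10 mg/kg per day by gavage. Non-parenchymal cells, the cells other than hepatocytes, were profiled in 3 droplet (10x Genomics) libraries per group. The labels do not say whether libraries of 1 group came from separate animals, so the tests measure the spread between libraries.

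Each helper or innate lymphoid programme is built around a transcription factor. T-bet (Tbx21) and eomesodermin (Eomes) direct type 1 and cytotoxic cells, GATA3 (Gata3) directs type 2 cells, FOXP3 (Foxp3) directs regulatory T cells, and PLZF (Zbtb16) directs NKT and other innate-like T cells. IL-4 and IL-13 (Il4, Il13) are type 2 cytokines, IL-17A (Il17a) recruits neutrophils, and CD25 (Il2ra) gives the IL-2 receptor its high affinity. The mouse liver is known for its many NKT cells, NK cells and resident type 1 innate lymphoid cells (ILC1).

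The Il4 and Il13 genes are neighbours, so the bases upstream of both are shown together. In GRCm38 with GENCODE models, Il4 spans chr11:53602982-53618669 and Il13 spans chr11:53631324-53634702, both on the minus strand and 12.7 kb apart. The 250 bases before the start site nearest to the GENCODE start are printed 5′ to 3′ on the gene's strand (RefSeq, GRCm38.p6). Il4 is at chr11:53618666-53618915 and Il13 at chr11:53634703-53634952. Capitals mark GGAAA and its reverse complement TTTCC, the core sequence bound by NFAT, a family of factors that the T cell receptor activates.
Il4: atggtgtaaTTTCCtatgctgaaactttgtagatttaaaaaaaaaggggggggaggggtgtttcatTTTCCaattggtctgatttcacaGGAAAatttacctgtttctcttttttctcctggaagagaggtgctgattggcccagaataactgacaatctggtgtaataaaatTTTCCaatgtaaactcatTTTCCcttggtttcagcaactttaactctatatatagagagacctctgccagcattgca
Il13: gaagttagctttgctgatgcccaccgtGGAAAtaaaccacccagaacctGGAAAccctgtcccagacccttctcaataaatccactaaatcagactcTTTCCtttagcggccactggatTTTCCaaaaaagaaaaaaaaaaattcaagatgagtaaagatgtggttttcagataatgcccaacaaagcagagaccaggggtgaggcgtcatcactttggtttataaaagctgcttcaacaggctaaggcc
The Il4 stretch holds 5 matches and the Il13 stretch holds 4, on either strand and without overlap. RefSeq lists a second Il4 start at position 53617338, whose upstream bases hold 0 matches and are not shown. At least 1 match was present in 55.6% of 32851 promoter windows of the same length, and 3 or more in 6.39%. The GATA letters AGATAA (or TTATCT) were found once in the Il13 and not in the Il4 stretch, and in 9.99% of all windows. The T-box letters TCACAC (or GTGTGA) were in neither, and in 12.3% of all windows. A match is a description of the letters only.

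The other members lie apart. Tbx21 is at chr11:97098071-97115331 (minus strand), Eomes at chr9:118478212-118486132 (plus), Gata3 at chr2:9857078-9890034 (minus) and Foxp3 at chrX:7573644-7595245 (plus). Zbtb16 is at chr9:48654297-48836222 (minus), Il17a at chr1:20730905-20734496 (plus) and Il2ra at chr2:11642807-11693193 (plus). All 9 are protein-coding genes.

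The tables held 33168 barcodes, and 27544 cells passed the filter on genes per cell and mitochondrial counts. Clusters with T, NK and ILC markers held 6588 of them, between 749 and 1473 per library. The kept cells had medians of 2483 to 8412 unique molecular identifiers (UMIs, one per counted transcript), highest in replicate 3 of both groups. Replicate 3 stood apart from replicates 1 and 2 in a further way. T cell receptor genes were counted in replicate 3 and were at 0 in all other libraries, as Trac was with 2988 and 3488 UMIs in vehicle and ginkgetin replicate 3. In all, 2253 genes had counts in replicate 3 libraries only and 946 in libraries of replicates 1 and 2 only, so CPM and shares over all genes rest on partly different genes across replicates. γδ T cells could therefore be recognised in replicate 3 alone, 21 in vehicle and 25 in ginkgetin, and those of the other libraries fall among the remaining T cells. The hepatocyte gene Alb was found in 67.2% of the lymphoid cells of vehicle replicate 3 and in 3.41% to 23.9% of the other libraries. The summed level of the 5 endothelial markers in lymphoid cells was 54.2 to 57.0 CPM (UMIs of a gene scaled to a common total of all UMIs in the same cells) in vehicle and 135 to 382 CPM in ginkgetin, and that of the 7 macrophage and monocyte markers was 252 to 386 against 51.9 to 162 CPM. In endothelial and B cells themselves Eomes stayed under 1.5 CPM in every library.

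Cells were gated by UMIs of markers that include none of the 9 genes. CD3-positive cells without Ncr1 were called NKT-like with Klrb1c (the NK1.1 gene) and no CD8 gene, γδ T with Trdc and no Trac, and otherwise CD4 T, CD8 T or other T. CD4, CD8 and other T cells together are called conventional T cells. CD8 T cells were 2449 of these 5049 cells, and the NKT-like gate excludes them. Differences between NKT-like and conventional T cells therefore rest partly on the gate. CD3-negative cells with Ncr1 or Klrb1c were called NK with any of 7 NK markers and ILC1-like with Itga1 or Cd200r1 and no NK marker. The gates gave 790 CD4, 2449 CD8, 1810 other T, 654 NKT-like, 46 γδ T, 231 NK and 155 ILC1-like cells. CD3-positive cells with Ncr1 formed a further class of 57, 11 and 52 cells in the vehicle and 8, 9 and 77 in the ginkgetin libraries. That class entered the class shares and none of the comparisons between classes. Trac was found in 85.3% and 94.7% of the NKT-like cells of vehicle and ginkgetin replicate 3. The invariant chain gene Trav11 of type I NKT cells was found in 2.94% and 9.02% of them. NKT-like therefore names the gate, not an invariant receptor. Itga1 was a weak marker in replicate 3, where 91.4% and 97.1% of endothelial cells and 20.7% and 42.3% of conventional T cells held it. Levels below are CPM of the summed UMIs of a class in a library, given as mean ± SD over libraries with 10 or more cells of that class.

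**Figure D1:**
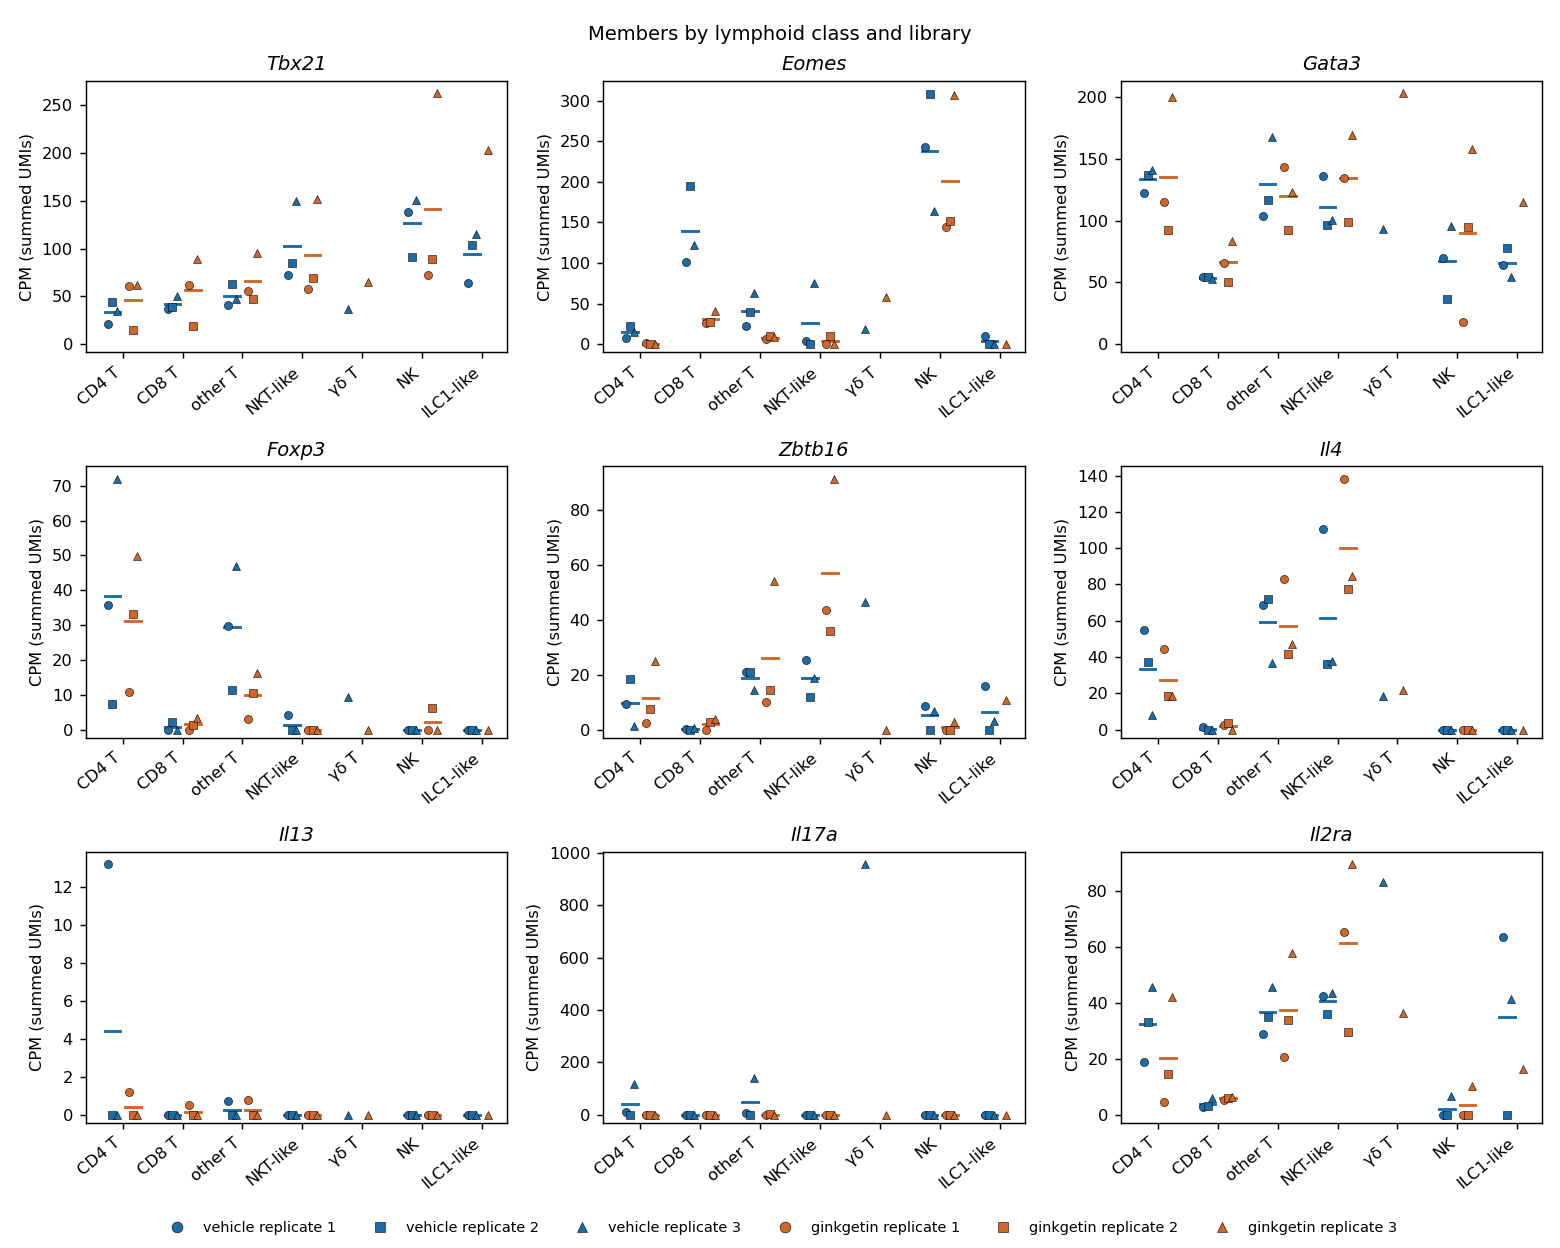
CPM of each of the 9 genes (vertical axes, linear, each with its own range) by lymphoid class (horizontal axes), with 1 point per library and class (blue for vehicle, orange for ginkgetin, shapes for replicates 1 to 3) and a bar at the group mean. Over all libraries the mean was highest in NK cells for Eomes, in NKT-like cells for Il4 and Zbtb16 and in CD4 T cells for Foxp3. In vehicle alone Zbtb16 was not highest in NKT-like cells (18.8 CPM against 46.4 in the γδ T cells of replicate 3), and Il17a came almost wholly from vehicle replicate 3.

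Tbx21 was highest in the innate classes. Its level was 134 ± 70.2 CPM in NK cells (n = 6), 121 ± 58.6 in ILC1-like cells (n = 4) and 97.7 ± 42.2 in NKT-like cells (n = 6), and 39.7 ± 19.996 in CD4 to 58.4 ± 19.95 in other T cells. Neighbouring classes in this order overlapped in range. Tbx21 was higher in NK than in conventional T cells of the same library in 6 of 6 libraries (log2 fold change 1.28 ± 0.20 SE, adjusted p = 1.5e-07, edgeR quasi-likelihood test with the library as a block). Between NKT-like and conventional T cells the difference was 0.86 ± 0.16 on the log2 scale (adjusted p = 2.0e-04), higher in 5 of 6 libraries and under the 2-fold limit of a call.

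Eomes was highest in NK cells, and was higher in CD8 than in CD4 T cells. The CD3-positive cells with Ncr1 averaged 102 ± 93.7 CPM (n = 4), with 126 ± 99.4 in vehicle (n = 3) and 32.0 in ginkgetin replicate 3. In NK cells its CPM was 243, 309 and 164 in vehicle replicates 1 to 3 and 145, 152 and 308 in ginkgetin replicates 1 to 3. In ILC1-like cells it was 10.6, 0 and 0 in the vehicle libraries and 0 in ginkgetin replicate 3, the only ginkgetin library with 10 such cells. The 5 ILC1-like cells of ginkgetin replicate 1, too few to enter the test, held 3 Eomes UMIs. NK cells exceeded conventional T cells by 2.08 ± 0.21 on the log2 scale (adjusted p = 1.1e-14, higher in 6 of 6 libraries). ILC1-like cells were below NK cells in 4 of 4 libraries, with 2 Eomes UMIs against 186 in the pooled cells. The pooled level of NK cells was 96.4-fold that of ILC1-like cells (95% interval 26.3 to 802, exact conditional, counting error only), and Eomes passed the filter on low counts through the NK cells alone. Tbx21 did not differ past the threshold between these classes (-0.48 ± 0.23, adjusted p = 0.303). CD4 T cells were below CD8 T cells in 6 of 6 libraries, with means of 7.70 ± 9.26 and 85.6 ± 67.3 CPM and 22 against 842 UMIs. Eomes passed the filter on low counts through the CD8 T cells alone, so its call (-3.64 ± 0.23, adjusted p = 1.4e-10) adds no support. NKT-like cells were below conventional T cells in 6 of 6 libraries (-2.22 ± 0.37, adjusted p = 4.4e-05), and the Eomes of vehicle replicate 3 NKT-like cells, 75.1 CPM, lay above the 0 to 9.87 CPM of the others.

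Gata3 was spread over all classes and was lowest in CD8 T cells. Its level was 60.3 ± 12.7 CPM in CD8, 135 ± 36.4 in CD4, 124 ± 27.3 in other T and 122 ± 29.0 in NKT-like cells (n = 6 each). The CPM in CD4 T cells was 123, 137 and 141 in the vehicle and 115, 92.2 and 200 in the ginkgetin libraries, against 54.8, 54.5 and 52.5 and 66.1, 50.1 and 83.7 in CD8 T cells. CD4 T cells lay above CD8 T cells in 6 of 6 libraries (log2 fold change 1.03 ± 0.11, adjusted p = 6.2e-07), just over the 2-fold limit. It was under that limit, and not called, with no filter on genes (0.98), with the range applied to UMIs (0.95), without vehicle replicate 3 (0.97) and without ginkgetin replicate 3 (0.96). NK (78.7 ± 49.7 CPM) and ILC1-like cells (77.8 ± 26.7) held intermediate levels. Gata3 did not differ past the threshold between NK and conventional T cells (-0.22 ± 0.21, adjusted p = 0.625) or between NKT-like and conventional T cells (0.38 ± 0.13, adjusted p = 0.065, higher in 6 of 6 libraries). The few cells with Il7r and a type 2 ILC marker but no CD3, Ncr1 or Klrb1c were too rare to test, 4, 1 and 8 in vehicle and 1, 0 and 0 in ginkgetin. Gata3 was at 619, 1028 and 1168 CPM in those of the vehicle libraries.

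Foxp3 marked a small part of the CD4 T cells. It was at 35.8, 7.41 and 72.0 CPM in the CD4 T cells of the vehicle libraries and at 10.8, 33.2 and 49.9 CPM in ginkgetin. It averaged 34.9 ± 24.3 CPM in CD4 and 19.7 ± 16.1 in other T cells and at most 4.64 in any other class. A Foxp3 UMI was found in 61 of 790 CD4 T cells. Of those 61 cells 34.4% also held Il2ra, 88.5% Ikzf2 (Helios), 67.2% Ctla4 and 70.5% Tnfrsf4 (OX40), against 5.49%, 20.2%, 21.4% and 19.8% of the 729 others. Tbx21 was held by 3.28% of them and 15.2% of the others. The median depths were 3985 and 3298 UMIs, and these shares are descriptions over cells with no test.

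Zbtb16 had its highest mean in NKT-like cells, at low counts. Its CPM there was 25.5, 12.1 and 18.8 in vehicle (6, 1 and 3 UMIs) and 43.6, 36.2 and 91.5 in ginkgetin (12, 22 and 155 UMIs). NKT-like cells exceeded the conventional T cells of the same library in 6 of 6 libraries (log2 fold change 2.19 ± 0.24, adjusted p = 1.4e-08). Other T cells, which hold no CD4 or CD8 signal or both, averaged 22.6 ± 16.1 CPM and lay above NKT-like cells in vehicle replicate 2 (21.1 against 12.1 CPM). γδ T cells held 46.4 CPM in vehicle replicate 3 (5 UMIs), above the NKT-like cells of that library, and 0 in ginkgetin replicate 3, a mean of 23.2 ± 32.8 (n = 2) and the second highest. CD8 T cells averaged 1.25 ± 1.65 CPM.

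**Figure D2:**
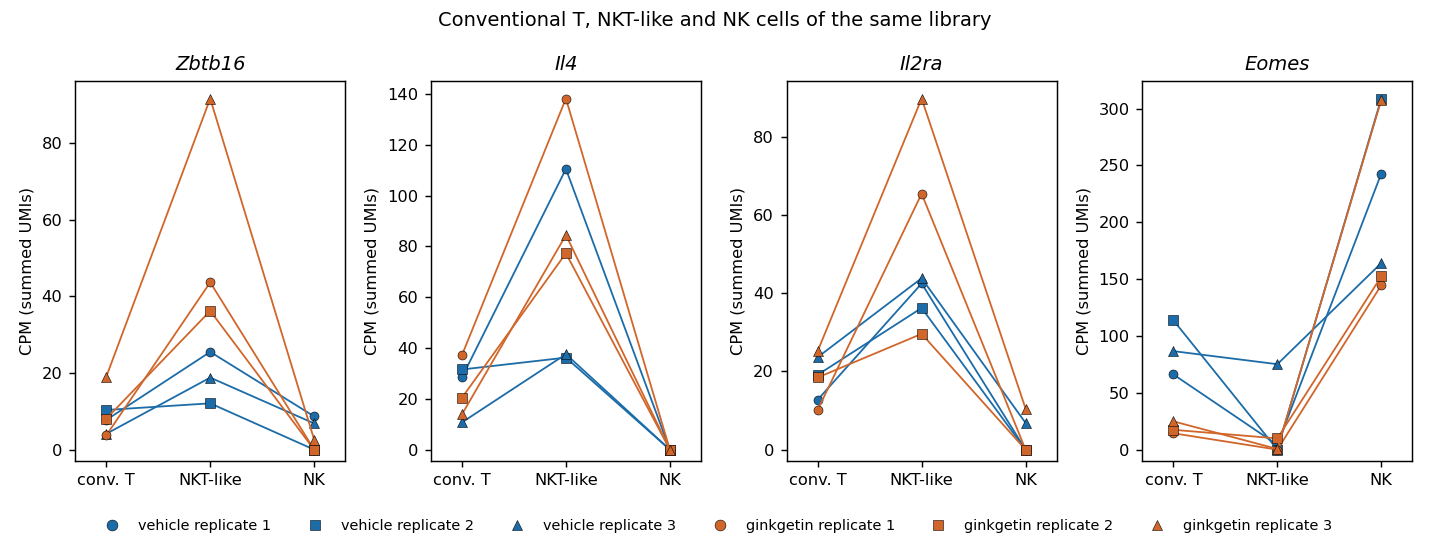
CPM of Zbtb16, Il4, Il2ra and Eomes (vertical axes, linear) in conventional T, NKT-like and NK cells (horizontal axes), with a line joining the classes of each library (blue for vehicle, orange for ginkgetin). Zbtb16, Il4 and Il2ra peaked in NKT-like cells in 6 of 6 libraries, and Il4 was 0 in NK cells throughout.

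Il4 also had its highest mean in NKT-like cells. In NKT-like cells it was at 110.5, 36.2 and 37.6 CPM in vehicle and 138, 77.3 and 84.5 CPM in ginkgetin. It was above conventional T cells in 6 of 6 libraries (log2 fold change 1.92 ± 0.18, adjusted p = 2.2e-10). Without the library block neither Il4 (adjusted p = 0.061) nor Eomes (adjusted p = 0.353) was called in NKT-like cells. Other T cells averaged 58.1 ± 18.8 CPM, CD4 T cells 30.2 ± 17.9 and CD8 T cells 1.27 ± 1.502. The CD8 T cells, which the NKT-like gate excludes, lower the conventional T level. Other T and NKT-like cells were close in vehicle (59.1 ± 19.3 and 61.4 ± 42.5 CPM) and less so in ginkgetin (57.1 ± 22.6 and 100 ± 33.3 CPM). The 36.2 CPM of NKT-like cells in vehicle replicate 2 lay below the lowest other T library, at 36.9 CPM. No Il4 UMI was found in 231 NK or 155 ILC1-like cells, which put NK cells at least 7.30-fold below conventional T cells (3 counts over the pooled NK cells, and a share of cells with a detected Il4 UMI of up to 1.30%, which does not limit the share expressing it). Of 654 NKT-like cells, 184 held an Il4 UMI. Zbtb16 was found in 33.7% of those and in 18.9% of the rest, whose median depth was lower (3786 against 5273.5 UMIs).

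Il13 was barely detected. All cells of the tables held 15 Il13 UMIs in 11 cells, 12 of them in 8 lymphoid cells. Vehicle replicate 1 held 8 of the lymphoid UMIs, ginkgetin replicate 1 held 3 and ginkgetin replicate 2 held 1. At this depth no class or group difference was detectable. Il4, its neighbour, gave 751 UMIs in the same cells.

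Il17a came from few cells with many UMIs each. The lymphoid cells of vehicle replicates 1, 2 and 3 held 16, 0 and 313 Il17a UMIs in 4, 0 and 20 cells, and those of ginkgetin replicates 1, 2 and 3 held 0, 7 and 0 UMIs in 0, 2 and 0 cells. A count of 0 allows a share of cells with a detected Il17a UMI, which is not the share expressing the gene, of up to 0.401% in vehicle replicate 2, 0.223% in ginkgetin replicate 1 and 0.341% in ginkgetin replicate 3. Vehicle replicate 3 alone was high, and the groups overlapped. Its 20 cells were 7 CD4 T, 7 other T and 6 γδ T cells. γδ T cells of vehicle replicate 3 held 103 UMIs, 956 CPM (exact Poisson 95% interval 781 to 1160, counting error only), and those of ginkgetin replicate 3 held none (upper bound 26.8 CPM). The γδ gate also differed in makeup between these 2 libraries. The receptor gene Trdv4 was found in 38.1% and 0% of its cells.

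Il17a was called in γδ against conventional T cells (log2 fold change 3.86 ± 0.38, adjusted p = 2.8e-16), but all Il17a counts of the γδ T cells came from 1 of the 2 libraries, and DESeq2 did not call it. Of the 26 lymphoid cells with Il17a, 96.2% held Maf, 88.5% Il7r and 88.5% Cxcr6, and none held Klrb1c. In the 6562 other lymphoid cells these shares were 35.8%, 43.6%, 53.3% and 22.5%, at a median depth of 3366 against 5159 UMIs. Within vehicle replicate 3, which held 20 of the 26 cells, these genes were found in 19, 18, 18 and 0 cells against 42.1%, 54.2%, 64.2% and 17.7% of the 955 others, at median depths of 5673 and 4649 UMIs. No Il17a UMI was found in CD8 T, NKT-like, NK or ILC1-like cells.

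**Figure D3:**
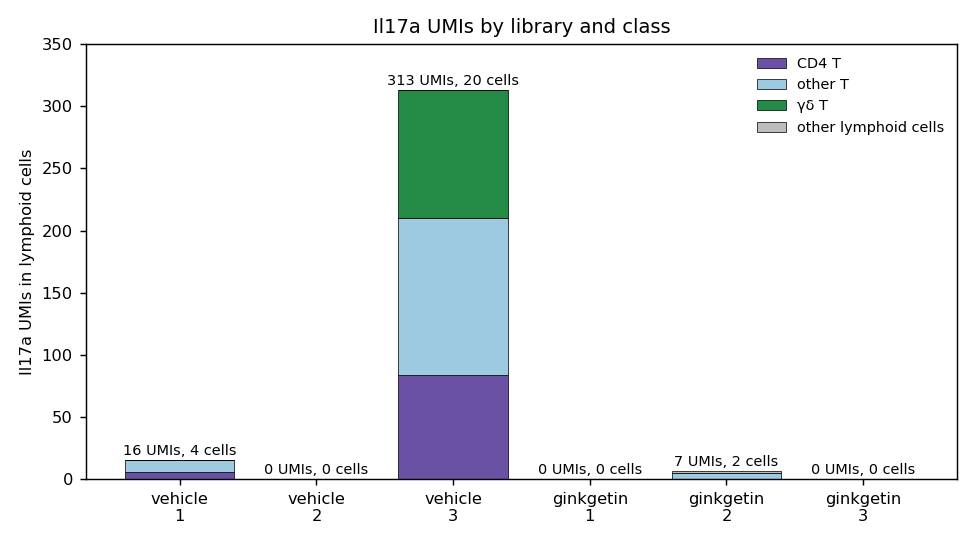
Il17a UMIs in lymphoid cells (vertical axis, linear from 0) of each library (horizontal axis), stacked by class, with the number of UMIs and of cells holding them above each bar. Vehicle replicate 3 held 313 of the 336 UMIs.

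Il2ra was high in γδ T, NKT-like and other T cells and nearly absent from NK and CD8 T cells. NKT-like cells held 42.5, 36.2 and 43.8 CPM in vehicle and 65.4, 29.6 and 89.8 CPM in ginkgetin. They exceeded conventional T cells in 6 of 6 libraries (log2 fold change 1.51 ± 0.22, adjusted p = 4.4e-06). NK cells held 5 UMIs in all, 6.84 CPM in vehicle replicate 3, 10.5 in ginkgetin replicate 3 and 0 in the other 4 libraries, and were below conventional T cells in 6 of 6 libraries (-2.16 ± 0.56, adjusted p = 0.00284). CD4 T cells averaged 26.6 ± 16.3 CPM, CD8 T cells 4.96 ± 1.596, ILC1-like cells 30.4 ± 28.0 and γδ T cells 59.9 ± 33.4 (n = 2). Other T cells averaged 37.1 ± 13.0 CPM and overlapped NKT-like cells in range. They were at 36.7 ± 8.45 against 40.8 ± 4.06 CPM in NKT-like cells in vehicle, and at 37.6 ± 18.8 against 61.6 ± 30.3 CPM in ginkgetin. The low CD8 T cells, which the NKT-like gate excludes, are part of the conventional T cells.

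Across all genes 6.51% of 7353 were called between NK and conventional T cells, with Eomes and Tbx21 called and Gata3 not. Il4 and Il2ra were called too, but both passed the filter on low counts through the conventional T cells alone, and their calls add no support. With 0 UMIs in NK cells, Il4 is read only as the bound above. Between NKT-like and conventional T cells 3.32% of 8393 genes were called, against 4 of 6 members (Zbtb16, Il4, Il2ra and Eomes). Of these Eomes passed the filter through the conventional T cells alone, and its call adds no support. The share was 2.82% of 6520 genes between CD4 and CD8 T cells, against 2 of 3 members (Eomes and Gata3). There Eomes passed the filter through the CD8 T cells alone, and its call adds no support. The share of genes called was 3.66% of 2347 between ILC1-like and NK cells, where Eomes was the 1 called of 3 members tested and is read only as the ratio of counts above. It was 0.55% of 8909 genes between γδ and conventional T cells, against 1 of 8 members (Il17a). Members absent from a test were removed by the filter on low counts. Between CD4 and CD8 T cells these included Foxp3, Zbtb16 and Il4, each higher in CD4 T cells in 6 of 6 libraries.

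The other genes of these pathways were read from a list of 58 regulators, cytokines, receptors and regulatory T cell genes. Against conventional T cells, NK cells had 6 of 37 tested list genes called higher and 11 lower. The 5 largest changes were lower Ctla4, Bcl11b, Icos and Lef1 and higher Il18rap, a subunit of the IL-18 receptor (log2 fold change 2.43 ± 0.19, 242 against 36.1 CPM). Bcl11b, which holds T cell identity, differed by -4.28 ± 0.28 (13.7 against 271 CPM). NK cells held 2 UMIs of Ctla4, 17 of Bcl11b, 18 of Icos and 29 of Lef1, so these folds and their order rest on few counts. Ctla4 passed the filter on low counts through the conventional T cells alone, and its call adds no support. In NKT-like cells 4 of 42 were higher and 6 lower, led by lower Itgae, Tnfrsf4, Ctla4 and Tcf7 and higher Il12rb2, an IL-12 receptor chain (1.76 ± 0.22, 44.9 against 11.9 CPM). Itgae and Tnfrsf4 rested on 5 and 16 UMIs in NKT-like cells. The median log2 fold change of the list was -0.17 in NK and 0.09 in NKT-like cells, beside -0.08 and -0.02 over all genes tested.

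Between CD4 and CD8 T cells 8 of 36 list genes were higher in CD4 and 1 lower, Runx3, a factor of CD8 lineage choice (-1.24 ± 0.0993), named after its values were seen. All 5 tested regulatory T cell genes were among the higher ones, and the largest change was that of Tnfrsf4 (4.90 ± 0.27, 141 against 4.45 CPM). Zbtb7b, the ThPOK gene of CD4 lineage choice, followed with 2.84 ± 0.18 (62.1 against 8.07 CPM), ahead of Capg, Icos and Ctla4. ILC1-like cells had 3 of 21 list genes higher than NK cells and 1 lower. Cxcr6, a chemokine receptor of liver-resident lymphocytes, was at 493 against 133 CPM (1.76 ± 0.19, adjusted p = 1.1e-07), with Il7r (1.73) and Maf (1.29) also higher and Ifng lower (-1.09). In γδ T cells 1 of 48 was higher (Itgae) and 3 lower (Tnfrsf4, Ctla4 and Ifng). Tnfrsf4 had no UMI in the γδ T cells of either library, and Ctla4 had 2 UMIs in all.

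As a description of pattern, Pearson's r of log2(CPM + 1) was computed over 36 class and library sums for 8626 genes, which share libraries and depth. The genes nearest to Il4 were Cd40lg (0.93), which encodes the T cell help signal CD40 ligand, Ly6c1 (0.90) and B3galt2 (0.85). Foxp3 was nearest to Tnfrsf4 (0.82), Gpm6b and Cpm, and Il17re (0.77) and Lrrc25 were among those nearest to Il17a. Tbx21 was nearest to Camk2g (0.83), Pik3r1 and Il2rb, Eomes to Wdr95 (0.76), Zeb2 and As3mt, and Gata3 to Rap1gds1 (0.83), Sept9 and Pdha1. Zbtb16 was nearest to Bmp7 (0.76), Il2ra (0.75) and Tmem64, and Il2ra to Josd1 (0.86), Tmem64 and Tars2.

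Between the treatment groups, Eomes in T cells was the member with the widest separation. In CD8 T cells it was at 102, 195 and 123 CPM in vehicle replicates 1 to 3 and at 25.9, 27.1 and 40.9 CPM in ginkgetin replicates 1 to 3. In conventional T cells as a whole it was at 66.1, 114 and 86.6 CPM against 14.4, 17.4 and 24.9 CPM. Every vehicle library lay above every ginkgetin library. Such a separation toward lower levels in ginkgetin was found for 6.97% of 9686 genes in CD8 T cells and 7.68% in conventional T cells. In summed cells, fewer Eomes-expressing cells and less Eomes RNA per cell cannot be told apart.

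The fold change in conventional T cells was -2.29 ± 0.28 on the log2 scale, and with group as the only term it was not called (adjusted p = 0.249, edgeR). With the replicate number as a block it was called (-2.25 ± 0.20, adjusted p = 0.0186), as were 0.496% of the genes tested. The labels do not pair the libraries by number, so this block is an assumption. Replicates 1 and 2 against 3 as the block gave adjusted p = 0.0290, and DESeq2 gave 1.3e-08. Over these and the other settings tried in conventional T cells the adjusted p ran from 1.3e-08 to 0.943, the highest without vehicle replicate 2. Without the cells holding 2 or more UMIs of B cell, macrophage, endothelial or hepatocyte markers it was -2.37 ± 0.38 (adjusted p = 0.297, no block), and leaving out each library in turn gave -2.45 to -2.01. In fits of single subsets, added after the data had been seen, the change in CD8 T cells alone was -2.12 ± 0.24 with the block (adjusted p = 0.0218, where 0.35% of 8287 genes were called) and -2.20 ± 0.33 without it (adjusted p = 0.408). In other T cells it was -2.17 ± 0.33 with the block (adjusted p = 0.0164) and -2.24 ± 0.41 without it (adjusted p = 0.248, not called). CD4 T cells held 7.55, 22.2 and 15.2 CPM against 1.20, 0 and 0 CPM.

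The makeup of the CD8 T cells also differed between libraries. Gzmk, a granzyme of effector memory cells, was found in 43.1%, 48.0% and 53.4% of them in vehicle and in 21.7%, 6.90% and 13.3% in ginkgetin, and the checkpoint gene Pdcd1 in 19.9%, 22.7% and 21.4% against 9.07%, 0.287% and 0.858%. The part of these shifts in the Eomes level was not tested.

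**Figure D4:**
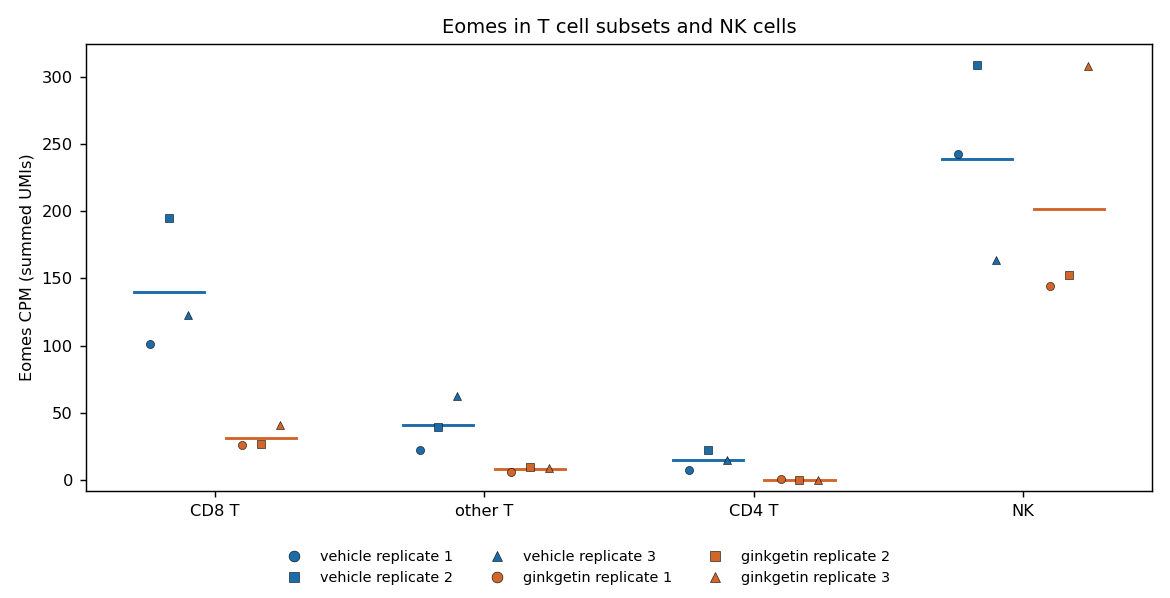
Eomes CPM (vertical axis, linear) in CD8 T, other T, CD4 T and NK cells (horizontal axis), with 1 point per library (blue for vehicle, orange for ginkgetin, shapes for replicates) and a bar at the group mean. The groups did not overlap in the 3 T cell subsets and overlapped in NK cells through ginkgetin replicate 3 alone.

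In NK cells, where Eomes was highest, the groups overlapped through ginkgetin replicate 3 alone. Its 308 CPM, from 117 of the 149 ginkgetin UMIs, lay within the vehicle range, and the 145 and 152 CPM of ginkgetin replicates 1 and 2 lay below it. The levels were 239 ± 72.4 CPM in vehicle and 202 ± 92.0 CPM in ginkgetin (log2 fold change -0.07 ± 0.39, adjusted p = 0.997), and without ginkgetin replicate 3 the change was -0.48 ± 0.39 (adjusted p = 0.763). The effect of ginkgetin on Eomes in NK cells minus that in conventional T cells was 2.01 ± 0.36 on the log2 scale (adjusted p = 2.5e-05 over 8827 genes, of which 17 passed). Without ginkgetin replicate 3 it was 1.71 ± 0.46 and did not pass (adjusted p = 0.135), and without each other library it stayed past the threshold (1.76 to 2.297). This test of the difference was added after the data had been seen. After each cell was thinned to 1000 UMIs in 1 random draw, which left out 1 shallower CD8 T cell in ginkgetin replicate 3, an Eomes UMI remained in 12.4% ± 3.56 of CD8 T cells in vehicle and 3.11% ± 0.0815 in ginkgetin, and a second draw gave 13.8% and 2.58%. Unthinned, the shares were 34.3% ± 7.74 and 11.1% ± 3.13. The thinned shares gave an exact permutation p of 0.1, two-sided, the smallest that 3 against 3 libraries allow (adjusted p = 0.833 over 25 gene and class pairs). The Il2ra share in CD4 T cells depended on the draw, with 3.79% ± 0.474 against 1.17% ± 1.65 in the first and 3.53% ± 2.87 against 2.31% ± 1.81 in the second, and the groups overlapped unthinned (9.84% ± 3.08 against 6.96% ± 6.51).

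No other member was called between the groups. In conventional T cells 7 of 9 members were tested, with 0 called, beside 0% of all 9686 genes by edgeR (927 at an unadjusted p under 0.05) and 106 genes by DESeq2, whose 1 member was Eomes. Foxp3 was at 13.4, 6.21 and 25.9 CPM against 3.23, 8.05 and 16.8 CPM (log2 fold change -0.81 ± 0.57, adjusted p = 0.680), and the groups overlapped. Tbx21 differed by 0.32 ± 0.28, Zbtb16 by 0.33 ± 0.56, Gata3 by 0.09 ± 0.20, Il4 by 0.05 ± 0.58 and Il2ra by -0.09 ± 0.33, none past the threshold. Il17a and Il13 did not pass the filter.

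In NKT-like cells 4 members were tested and 0 were called, beside 0.0329% of 3044 genes (1 gene, against 8 by DESeq2 and 204 at an unadjusted p under 0.05). Il4 differed by 0.60 ± 0.48 (adjusted p = 0.864), and was higher in ginkgetin in 3 of 3 same-numbered pairs (0.77 ± 0.35 with the replicate block, adjusted p = 0.339, not called). Il2ra differed by 0.60 ± 0.44, Gata3 by 0.28 ± 0.29 and Tbx21 by -0.07 ± 0.40. Zbtb16 did not pass the filter, although its levels of 18.8 ± 6.71 and 57.1 ± 30.04 CPM did not overlap. A separation toward higher levels in ginkgetin was found for 3.75% of the genes tested. In NK cells 3 members were tested and 0 were called, beside 0% of 1751 genes (104 at an unadjusted p under 0.05, and 1 gene by DESeq2). Tbx21 there differed by 0.33 ± 0.47 and Gata3 by 0.62 ± 0.57. γδ T cells, in 1 library per group, and ILC1-like cells, with 1 ginkgetin library of 10 or more, could not be tested between the groups.

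Of the related genes, with no block 0 of 52 tested list genes were called in conventional T cells, and with the replicate block 2 were lower in ginkgetin. The median log2 fold change of the list was -0.28 with the block, beside 0.0013 over all genes tested. Tnfrsf4 was at 71.5 ± 41.4 against 15.8 ± 7.51 CPM (-2.17 ± 0.22, adjusted p = 0.0186). Areg, which encodes the repair factor amphiregulin, was at 25.7 ± 19.2 against 0.997 ± 0.993 CPM (-4.33 ± 0.67, adjusted p = 0.0378). None of the 29 list genes tested in NKT-like or the 17 in NK cells was called.

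The NKT-like gate was larger in ginkgetin, and it held a larger part of the transcripts of some members there. NKT-like cells were 4.24%, 3.51% and 3.49% of gated lymphoid cells in vehicle and 7.81%, 16.3% and 27.7% in ginkgetin, without overlap. The difference was 13.5 percentage points (exact permutation p = 0.1, the smallest possible, adjusted p = 0.4 over 8 classes), and 8.29 points without ginkgetin replicate 3. In edgeR fits of cell numbers, added after the data had been seen, the log2 fold change was 2.20 ± 0.56 (adjusted p = 0.0473), and with the replicate block 2.02 ± 0.54 (adjusted p = 0.090). CD8 T cells were 45.4%, 41.1% and 40.3% in vehicle and 38.1%, 30.8% and 26.5% in ginkgetin (p = 0.1, exact permutation, adjusted p = 0.4). NK cells (2.38% ± 0.112 against 5.11% ± 3.30) and ILC1-like cells (3.39% ± 2.04 against 1.54% ± 1.82) overlapped between groups. Within same-numbered libraries the ILC1-like share was lower in ginkgetin in 3 of 3 pairs (3.14% and 0.375%, 1.49% and 0.619%, 5.54% and 3.64%). The edgeR fit of ILC1-like cell numbers gave -1.16 ± 0.95 with no block (adjusted p = 0.441), -1.53 ± 0.60 with the replicate block (adjusted p = 0.184) and -1.59 ± 0.57 with replicates 1 and 2 against 3 as the block (adjusted p = 0.0360).

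NKT-like cells held 10.5% of the lymphoid Zbtb16 UMIs in vehicle and 63.6% in ginkgetin. For Il4 the shares were 13.2% and 46.9%, for Il2ra 7.25% and 50.0%, and for Tbx21 7.20% and 27.2%. For Gata3 they were 4.84% and 24.8% (12.6% without ginkgetin replicate 3), for Eomes 1.31% and 1.89% and for Foxp3 0.588% and 0%. NKT-like cells held no Il13 or Il17a UMI. Without ginkgetin replicate 3 the ginkgetin shares were 44.7% for Zbtb16, 28.2% for Il4, 26.9% for Il2ra and 13.4% for Tbx21. These shares pool the 3 libraries of a group and are weighted toward ginkgetin replicate 3, which held 155 of the 189 Zbtb16 UMIs of ginkgetin NKT-like cells. Mean levels within NKT-like cells in vehicle and ginkgetin were 18.8 and 57.1 CPM for Zbtb16 and 61.4 and 100 for Il4. They were 40.8 and 61.6 CPM for Il2ra and 102 and 93.0 for Tbx21. The parts of gate size and of level in these shares were not tested. Klrb1c, which sets the gate, was found in 25.3% of CD8 T cells of ginkgetin replicate 3 and in 2.96% to 6.33% in the other libraries, and in at most 0.495% of endothelial cells.

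**Figure D5:**
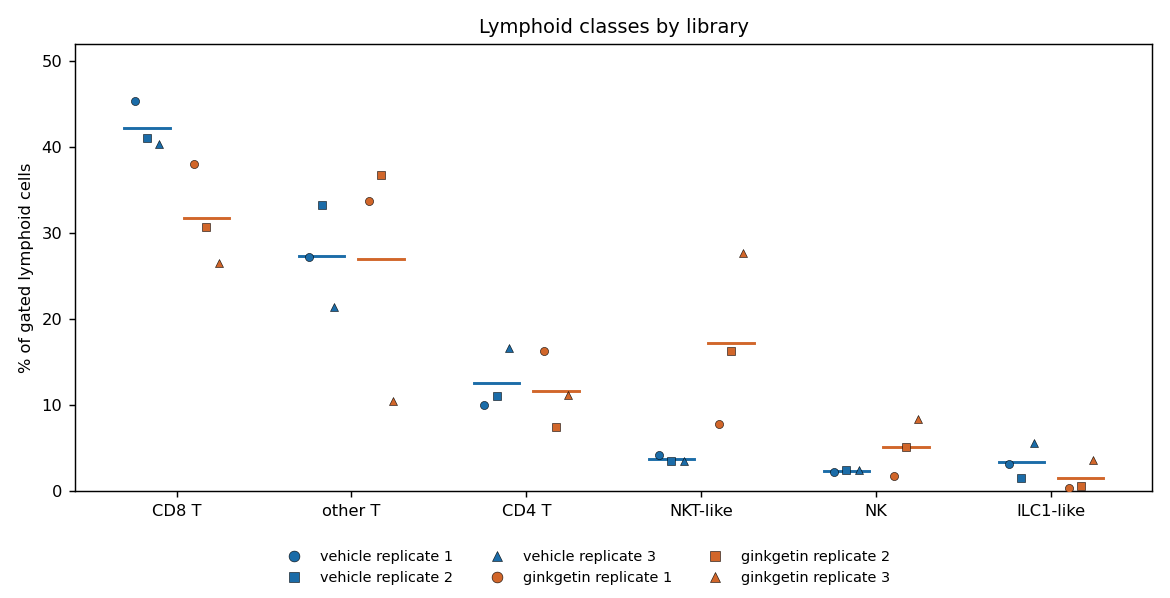
Share of gated lymphoid cells (vertical axis, percent, linear from 0) in 6 classes (horizontal axis), with 1 point per library (blue for vehicle, orange for ginkgetin) and a bar at the group mean. NKT-like shares ran from 3.49% to 4.24% in vehicle and from 7.81% to 27.7% in ginkgetin.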

How the data were processed

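The authors deposited raw UMI counts per gene and cell barcode for 6 libraries, 3 per group, with no normalization. GRCm38 and mm10 are named in the submitters' processing notes, and the aligner and annotation are not given in the sources used here. The study's methods keep cells with 250 to 5000 UMIs and under 5% mitochondrial counts. The main filter departed from this by applying the range to genes per cell, and the range on UMIs was an alternative. No doublet caller was run. Cells were clustered in scanpy 1.11.5 (2000 variable genes without the 9 members, 30 components, 15 neighbours, Leiden resolution 1, leidenalg 0.10.2).

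Counts were summed per library and class and tested with edgeR 4.0.16 (R 4.3.3, TMM, filterByExpr, quasi-likelihood test). Comparisons between groups used the group as the only term and comparisons between classes the library as a block. Calls needed a fold over 2 and an adjusted p (Benjamini-Hochberg, all genes tested) under 0.05. DESeq2 1.42.0 was an alternative. Standard errors were the fitted log2 fold change over the square root of the test's F statistic. The test was checked on simulated counts. Shares were compared with two-sided exact permutation tests (scipy 1.17.1).

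Total counts per library were 13128697 to 61796882 UMIs, and intervals and limits (3 counts) cover counting error only. Between libraries 11 to 163 barcodes were shared with any other library, and 0 to 7 among lymphoid cells. Same-numbered libraries deviated together in conventional T cells (r = 0.55, 0.49 and 0.84). Replicates 1 and 2 of different number also correlated (0.42 and 0.57), while replicate 3 against them gave -0.71 to -0.57. These values set replicate 3 apart from replicates 1 and 2 and do not show pairing by number. The labels name no pairs. The replicate block was used as an alternative only, and its calls rest on an assumed pairing. Of the related genes, up to 5 called genes per comparison were named by size of change, with a mean of 10 CPM or more. The members and lists were chosen with earlier results of these data known. The likeness description took genes averaging 10 CPM or more in any class. Promoters were matched for 8 of the 9 members. Some results on other genes are not reported here.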

Additional observations from a re-analysis of the deposited data

Results flagged for a closer look

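The effect of ginkgetin on Eomes differed between classes in a test of the difference itself, in one edgeR fit with the library as a block. The log2 change in NK cells minus that in conventional T cells was 2.01 ± 0.36 (adjusted p = 2.5e-05 over 8827 genes), and minus that in CD8 T cells it was 1.85 ± 0.34 (adjusted p = 1.0e-04 over 7399 genes, of which 22 passed). Both calls were lost without ginkgetin replicate 3, with 1.71 ± 0.46 (adjusted p = 0.135) against conventional T cells and 1.53 ± 0.46 (adjusted p = 0.252) against CD8 T cells, and both held without each other library (1.76 to 2.297 and 1.67 to 2.19). Both rest on the same NK libraries, and CD8 T cells are part of the conventional T cells. NK cells numbered 33, 18 and 24 in the vehicle and 24, 58 and 74 in the ginkgetin libraries. The Eomes UMIs in NK cells were 69 in vehicle and 149 in ginkgetin, of which ginkgetin replicate 3 held 117. In the other same-numbered pairs Eomes in NK cells was lower in ginkgetin, at 243 and 145 CPM in replicate 1 and 309 and 152 CPM in replicate 2.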

How the results depend on the processing

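Counts of called members moved as follows. In conventional T cells, ginkgetin against vehicle, DESeq2, the replicate block and the block of replicates 1 and 2 against 3 each called 1 member (Eomes) in place of 0, and so did the replicate block in CD8 T and in other T cells. NK against conventional T fell from 4 to 2 with the range applied to UMIs and without other-lineage cells, where Il4 and Il2ra were no longer tested, and rose to 6 with no filter on genes (Foxp3 and Il17a added). NKT-like against conventional T fell from 4 to 2 without the library block and to 3 with the UMI range and without other-lineage cells (where Eomes was no longer tested), and rose to 6 with no filter on genes (Foxp3 and Il17a added) and without ginkgetin replicate 1 (Foxp3 and Tbx21 added). The γδ call of Il17a went to 0 with DESeq2 and without the block. CD4 against CD8 rose from 2 to 6 with no filter on genes (Gata3 lost, and Il2ra, Foxp3, Zbtb16, Il4 and Il17a added) and fell to 1 with the UMI range (Gata3 lost) and without other-lineage cells (Eomes no longer tested). Leaving out libraries gave 1 to 3, with Gata3 lost without vehicle replicate 3 and without ginkgetin replicate 3, which left 1 (Eomes). Class share calls rose from 0 to 1 in edgeR fits of cell numbers (NKT-like), 1 with the replicate block (cells with Ncr1 or Klrb1c that were neither NK nor ILC1-like), and 3 with the block of replicates 1 and 2 against 3 (NKT-like, ILC1-like and the same unresolved cells). The causes were not tested. The replicate block changed no other member's call between the groups.

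Uncalled log2 changes that turned sign were, in conventional T cells, Gata3 (-0.030 to 0.19 with libraries left out), Il2ra (0.065 with the UMI range, 0.59 without other-lineage cells, -0.29 to 0.14 with libraries left out), Zbtb16 (-0.16 to 0.67) and Il4 (-0.50 to 0.43). In NKT-like cells they were Il4 (-0.39 without other-lineage cells) and Tbx21 (-0.48 to 0.29). In NK cells they were Eomes (0.0070 with the block of replicates 1 and 2 against 3, 0.28 with strict gates, -0.48 to 0.073) and Tbx21 (-0.51 to 0.53). In γδ T cells they were Gata3 (-0.29) and Eomes (0.36), both with the UMI range. The Il2ra share difference in CD4 T cells became 0.362 points thinned to 500 UMIs and 4.11 points without other-lineage cells.

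Over all genes the number called ranged over the alternatives from 0 to 106 in conventional T, 0 to 52 in NKT-like and 0 to 17 in NK cells between the groups. Between classes it ranged from 272 to 831 (NK), 66 to 443 (NKT-like) and 9 to 61 (γδ) against conventional T, 67 to 408 for CD4 against CD8 and 19 to 166 for ILC1-like against NK. Of the members' fold changes, 457 values under alternatives kept direction and call, 6 gained a call, 8 lost one and 21 turned sign. NK cells without other-lineage cells could not be tested between the groups, nor γδ T cells without other-lineage cells or with a library left out. The γδ T and ILC1-like group comparisons gave no value under any setting.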
